A study of Homo sapiens with 18 samples.

Results

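Untreated SUDHL6 cells were compared with untreated SUDHL4 cells across 10686 loci. Both are established human lines from diffuse large B cell lymphomas, assigned by the labels to the germinal centre B cell class (GCB) and kept in RPMI1640 with 10% FBS. All 6 libraries came from cells given only DMSO, the solvent of a BCL6 inhibitor that was given to other samples of the series, which holds 18 libraries in 6 groups. The titles put the exposure at 12 h and the source names at 24 h, and which holds is not settled by the labels. Each line had 3 libraries of messenger RNA, numbered 1 to 3. They are repeated samples of 1 line each, so a p-value here measures the spread between libraries of these 2 lines and says nothing of other lymphomas of this type. A locus entered the comparison when it carried a gene name and reached at least 1 FPKM (fragments per kilobase of transcript, scaled to the mapped fragments of the library) in at least 3 of the 6 libraries. The table lists 34410 loci, of which 26004 were named and 10686 passed. A tested gene that stayed under 1 FPKM in every library of 1 line thus passed only through the other line, where it was high.

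Germinal centres are the sites in lymph nodes where activated B cells mutate their antibody genes and are selected. Their cells depend on the repressor BCL6, signal through the B cell receptor by way of the kinases LYN, SYK and BTK, and alternate between a dark zone, where they divide, and a light zone, where they are selected. Phosphatases such as SHP-1, the product of PTPN6, restrain the receptor. Lymphomas of the germinal centre type keep much of this programme, and both lines are known to carry the translocation that joins BCL2 to the immunoglobulin heavy chain locus and a hotspot mutation of EZH2.

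The libraries of a line resembled each other more than those of the other line, with 1 library standing apart. Pearson's r over the tested loci on the log2(FPKM + 1) scale was 0.968 to 0.975 among the SUDHL4 libraries and 0.977 between SUDHL6 replicates 1 and 2. SUDHL6 replicate 3 reached only 0.901 and 0.902 with the other SUDHL6 libraries, and pairs from different lines lay between 0.799 and 0.85. That library was listed at 0 for 260 of the tested loci, against 79 to 85 in the other 5. FPKM sums ran from 1130063 to 1548453 per library, of which small RNA loci held 31.7 to 49.7%. Counts were not in the table, so the absolute depth is unknown, and relative depth from the value of 1 read was 0.963 to 1.11 of that of SUDHL6 replicate 2 in the 5 libraries that allowed it. The library that did not allow it was SUDHL6 replicate 3, whose depth is thus unknown even in relative terms. Of 8 B cell markers 5 were measured by name, and their FPKM summed to between 1010 and 1073 in SUDHL6 and between 1261 and 1305 in SUDHL4. Markers of T and NK cells summed to at most 2.02 FPKM in any library, those of monocytes and macrophages to at most 2.01 FPKM and those of epithelium to at most 1.70 FPKM. Of the T and NK cell markers CD3E alone passed the filter, and only through SUDHL4. It was listed at 0 in SUDHL6 and was at 1.03, 1.13 and 1.05 FPKM in SUDHL4 (adjusted p = 3.86e-05). The others measured by name reached at most 0.753 FPKM, in KLRD1, with CD2 listed at 0 in all 6 libraries. Stromal markers summed to at most 0.0159 FPKM in SUDHL6 and to between 51.2 and 55.3 FPKM in SUDHL4, where THY1 and DCN made up nearly all of it.

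Differences between the lines were the rule. In limma, 7135 of the 10686 loci passed a Benjamini-Hochberg adjusted p of 0.05 and are called different below, which is 66.8% of those tested. SUDHL6 was higher at 3760 of them (35.2%) and lower at 3375 (31.6%). Asking in addition for a difference of at least 1 on the log2(FPKM + 1) scale left 2344 loci (21.9%), with 1061 higher in SUDHL6 (9.93%) and 1283 lower (12%). The median absolute log2 difference over all loci was 0.51, against a median SE of 0.10, and the median signed difference was 0.04. At 189 called loci the difference was at least 3, with 66 higher and 123 lower in SUDHL6. The 3 values of each line did not overlap at 7828 loci (73.3%), and at 7107 of the 7135 called. Lack of overlap at a called gene is therefore the rule, here and below. In bulk RNA, fewer cells that carry a transcript and less of it in each cell cannot be told apart.

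**Figure D1:**
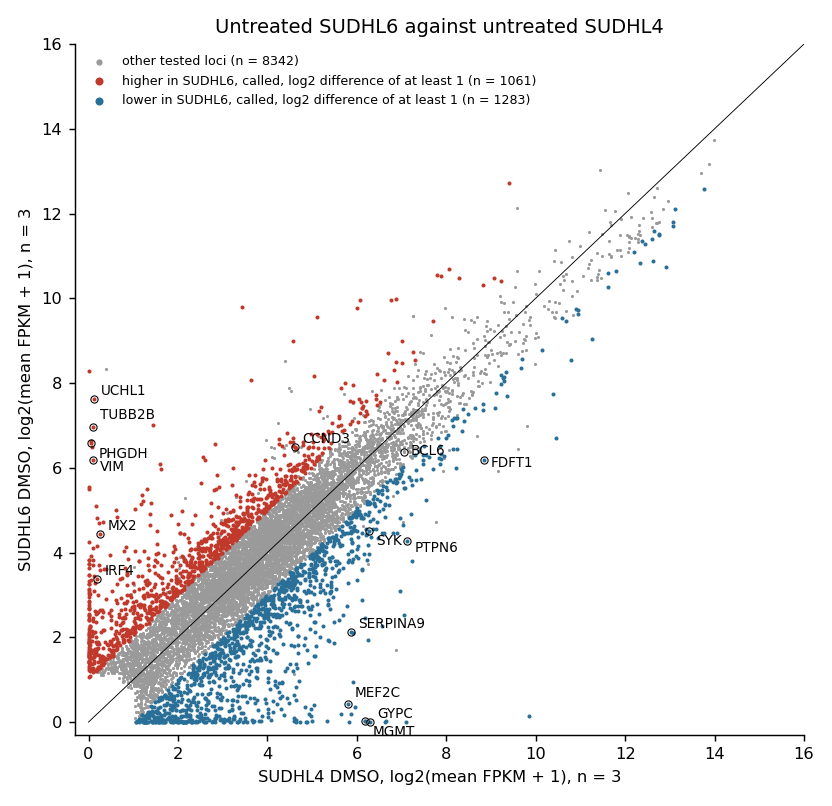
Mean of 3 untreated SUDHL6 libraries (vertical) against the mean of 3 untreated SUDHL4 libraries (horizontal) for the 10686 tested loci, both as log2(mean FPKM + 1), with the line of equal values. Red points (1061) were called higher and blue points (1283) lower in SUDHL6 with a log2 difference of at least 1, and named genes are circled; UCHL1, PHGDH and VIM lie on the left edge, near 0 in SUDHL4, and GYPC and MGMT on the lower edge, near 0 in SUDHL6.

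The largest differences were genes read in 1 line and near 0 in the other. UCHL1, which encodes a ubiquitin hydrolase abundant in neurons, was at 199, 191 and 198 FPKM in SUDHL6 and at 0.103, 0.0595 and 0.0955 FPKM in SUDHL4. PHGDH, the first enzyme of serine synthesis from glucose, was at 73.5, 108 and 101 FPKM in SUDHL6 and at 0.0348, 0.0453 and 0.0485 FPKM in SUDHL4. MGMT, which removes alkyl groups from guanine in DNA, was at 0.0287, 0 and 0 FPKM in SUDHL6 and at 77.5, 70.4 and 67.9 FPKM in SUDHL4. Every library of the higher line stood far above every library of the other in all 3 genes. MEF2C, a transcription factor of germinal centre B cells, was at 0.349, 0.336 and 0.346 FPKM in SUDHL6 and at 55.4, 54.3 and 54.1 FPKM in SUDHL4, again without overlap. On the log2(FPKM + 1) scale the differences were 7.503 for UCHL1 (SE 0.06, adjusted p = 3.75e-08), 6.50 for PHGDH (SE 0.15, adjusted p = 8.67e-07), -6.17 for MGMT (SE 0.08, adjusted p = 1.16e-07) and -5.37 for MEF2C (SE 0.06, adjusted p = 1.16e-07). The pseudocount bounds such values, since the lower line lies near 0. Each of these genes passed the filter only through the libraries of its higher line. Lack of overlap was required by the rule that chose the largest differences.

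The promoters of these 4 genes are shown because each gene was read in 1 line and nearly silent in the other, with every CpG dinucleotide in capitals. They are the RefSeq reference windows of 250 bases before and 50 after the annotated start in GRCh38.p14, printed 5′ to 3′ on the gene's strand, and not sequence of these lines.
UCHL1, chr4:41256678-41256977, plus strand: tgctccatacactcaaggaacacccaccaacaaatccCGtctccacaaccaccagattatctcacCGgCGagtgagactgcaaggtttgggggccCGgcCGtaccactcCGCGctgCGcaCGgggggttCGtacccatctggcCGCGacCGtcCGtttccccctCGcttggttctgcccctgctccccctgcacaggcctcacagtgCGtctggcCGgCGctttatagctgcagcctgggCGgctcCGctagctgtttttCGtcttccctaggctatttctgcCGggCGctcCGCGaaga
PHGDH, chr1:119711684-119711983, plus strand: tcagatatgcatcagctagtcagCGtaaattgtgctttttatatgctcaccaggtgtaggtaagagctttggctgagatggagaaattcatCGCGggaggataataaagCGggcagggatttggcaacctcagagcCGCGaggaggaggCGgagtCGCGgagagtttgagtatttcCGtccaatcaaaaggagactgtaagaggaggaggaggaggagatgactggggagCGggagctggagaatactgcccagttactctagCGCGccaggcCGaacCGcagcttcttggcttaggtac
MGMT, chr10:129466991-129467290, plus strand: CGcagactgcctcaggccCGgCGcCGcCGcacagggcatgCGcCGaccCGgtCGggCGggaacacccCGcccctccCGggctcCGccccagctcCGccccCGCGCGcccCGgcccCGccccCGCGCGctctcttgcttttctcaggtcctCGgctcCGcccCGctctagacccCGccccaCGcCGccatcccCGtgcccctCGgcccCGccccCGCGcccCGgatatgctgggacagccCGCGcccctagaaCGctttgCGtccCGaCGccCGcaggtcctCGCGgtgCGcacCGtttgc
MEF2C, chr5:88883135-88883434, minus strand: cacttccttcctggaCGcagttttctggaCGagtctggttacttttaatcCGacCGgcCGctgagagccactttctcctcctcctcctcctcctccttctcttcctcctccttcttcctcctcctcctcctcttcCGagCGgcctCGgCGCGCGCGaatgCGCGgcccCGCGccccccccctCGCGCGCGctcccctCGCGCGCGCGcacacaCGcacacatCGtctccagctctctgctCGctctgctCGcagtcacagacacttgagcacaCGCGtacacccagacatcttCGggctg

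All 4 windows were rich in CpG. They held 25 CpG in UCHL1, 15 in PHGDH, 45 in MGMT and 32 in MEF2C, with observed over expected ratios of 0.87, 0.788, 1.06 and 1.19. A ratio of at least 0.6 was found in 48.9% of the 35116 promoters of the table and in 85.8% of the 6373 that matched a tested gene with a name used once. Among called genes with a log2 difference of at least 1 it was found in 81.6% of 604 promoters of genes higher and 77.5% of 724 of genes lower in SUDHL6. With a difference of at least 3 the shares were 70.6% of 34 and 73.3% of 60. Motifs were searched on either strand, with shares given for all promoters of the table and then for those of tested genes. TATAAA occurred in the windows of UCHL1 and PHGDH (11.5 and 5.05%) and GGGCGG in UCHL1 and MGMT (45 and 70.6%). CCAAT occurred in PHGDH (34.6 and 37.4%) and GAGGAA in MEF2C (27.9 and 27%). GGG followed by CC after any 5 bases, which can overlap GGGCGG, occurred in UCHL1 and MGMT (58.7 and 73.4%). The search also covered CACGTG (7.26 and 10.5%), ATGCAAA (4.46 and 2.71%) and TTCNNNGAA (7.66 and 6.04%), whose letters were in none of the 4 windows.

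Among the other large differences in favour of SUDHL6 were genes of the cytoskeleton. TUBB2B, a beta tubulin of neurons, was at 104, 122 and 149 FPKM in SUDHL6 and at 0.114, 0.0661 and 0.0354 FPKM in SUDHL4. VIM, the intermediate filament vimentin, was at 47.2, 62.3 and 106 FPKM and at 0.0711, 0.0463 and 0.0826 FPKM. Neither gene overlapped between the lines, which the rule that chose them required, and VIM was highest in SUDHL6 replicate 3. The differences were 6.86 (SE 0.13) and 6.01 (SE 0.27), with adjusted p of 5.84e-07 and 1.03e-05. APOD, a lipocalin that carries lipids, spread widely in SUDHL6, at 150.1, 114 and 30.4 FPKM, and was at 0.0340, 0.0296 and 0.0633 FPKM in SUDHL4. Others among the 15 largest were IGLL5 (4.42), ASZ1 (4.38), ARPP21 (4.37), CUX2 (4.33), LHFPL2 (4.20), the interferon-induced GTPase MX2 (4.16), the fatty acid desaturase FADS2 (4.07), PYHIN1 (4.01) and MYADML2 (3.99). IGLL5 lies in the immunoglobulin lambda locus, where 13 of its 16 nearest RefSeq neighbours carry immunoglobulin symbols, and how reads of those genes were divided is not known.

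In the other direction, surface and matrix genes of other lineages stood out in SUDHL4. GYPC, the red cell membrane protein glycophorin C, was listed at 0 in all 3 SUDHL6 libraries and was at 81.3, 82.1 and 69.9 FPKM in SUDHL4. THY1, a surface glycoprotein of fibroblasts, neurons and T cells, was listed at 0 in SUDHL6 and was at 28.2, 30.0 and 27.0 FPKM in SUDHL4. DCN, the matrix proteoglycan decorin, was listed at 0 in SUDHL6 and was at 27.1, 24.9 and 24.1 FPKM in SUDHL4. No other stromal marker measured by name passed the filter. CSF2RB, the shared beta chain of the receptors for IL-3, IL-5 and GM-CSF, was at 0.197, 0.141 and 0.0668 FPKM in SUDHL6 and at 29.9, 31.1 and 28.1 FPKM in SUDHL4 (log2 difference -4.76, SE 0.08, adjusted p = 3.76e-07). The groups of each of these genes were fully apart, which the rule that chose them required, and each passed the filter only through the SUDHL4 libraries. EYA2 was listed at 0 in SUDHL6, and CCDC85A (-5.83), DAPL1 (-5.68), the testis proteasome subunit PSMA8 (-5.62), SCRN1 (-5.46), MAP3K7CL (-4.98), the beta tubulin TUBB6 (-4.65), RAPGEF5 (-4.64) and TSPAN13 (-4.62) completed the 15 largest.

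**Figure D2:**
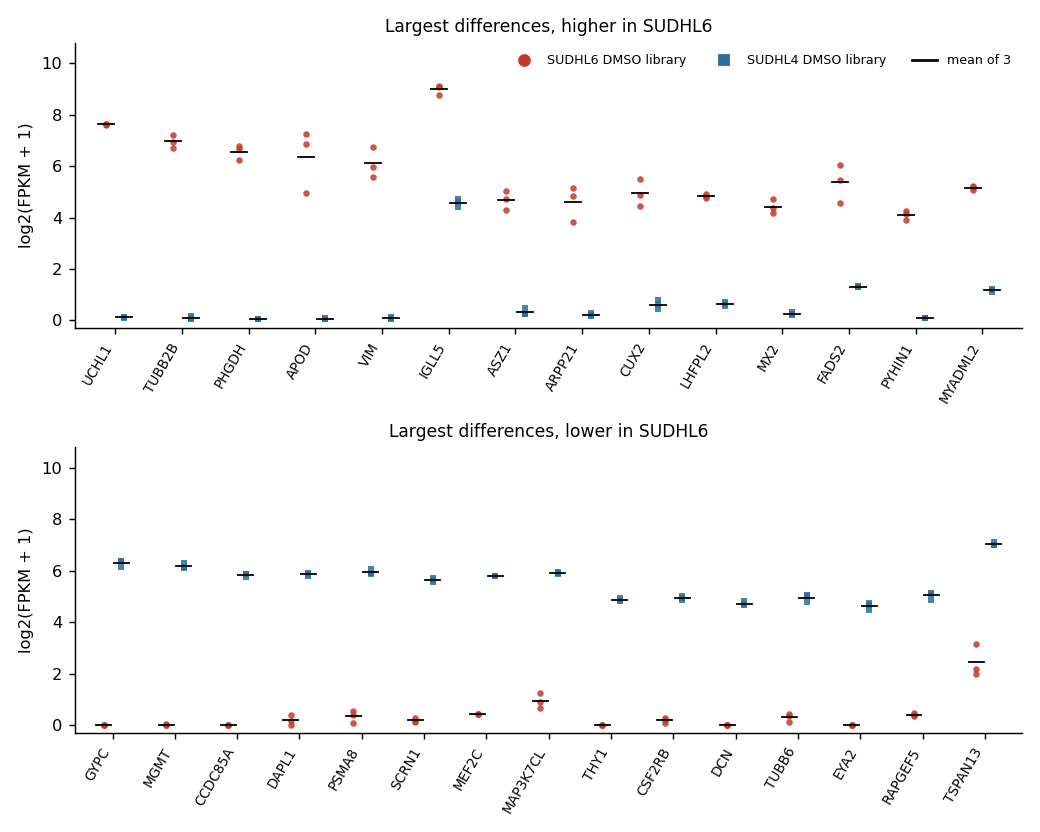
Values of the largest differences, 14 higher and 15 lower in SUDHL6, as log2(FPKM + 1), 1 point per untreated library (red circles SUDHL6, blue squares SUDHL4) with the mean of 3 as a bar. No gene has overlapping groups, which the rule that chose them requires; APOD and FADS2 spread most among the SUDHL6 libraries, and TSPAN13 is the gene of the lower panel with the highest values in SUDHL6.

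A stricter view counted genes with a mean of at least 10 FPKM in 1 line and under 0.1 FPKM in every library of the other. There were 11 such genes read only in SUDHL6 and 13 read only in SUDHL4. Besides APOD, PHGDH, VIM and PYHIN1, the SUDHL6 set held ALPL, the tissue nonspecific alkaline phosphatase, at 5.67, 9.92 and 27.0 FPKM, and TEAD4, a transcription factor of the Hippo pathway, at 10.7, 13.3 and 15.5 FPKM. SVIP, TFCP2, RPP25 and the pseudogene YWHAEP7 were the other members named, with SUDHL6 means between 10.1 and 13.1 FPKM. The SUDHL4 set held, besides those above, the receptor phosphatase PTPRS at 23.2, 23.8 and 22.6 FPKM, the deubiquitinase USP2 at 16.3, 16.6 and 14.9 FPKM, the phospholipase PLCB2 at 13.7, 14.6 and 12.3 FPKM and ALKBH3, a repair enzyme for alkylated nucleic acid, at 12.0, 11.2 and 12.3 FPKM. MGMT and ALKBH3, which both reverse alkylation damage, were thus near or at 0 in SUDHL6.

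Of 30 core genes of the disease 22 could be tested, 6 lay in loci shared with another gene and 2 were under the filter. SUDHL6 was lower for 10, higher for 4 and not called for 8, against 31.6% lower and 35.2% higher over all loci. BCL6 was at 74.0, 99.8 and 72.8 FPKM in SUDHL6 and at 132, 139 and 123 FPKM in SUDHL4, with every SUDHL6 library below every SUDHL4 library (log2 difference -0.68, SE 0.14, adjusted p = 0.00448). BCL2, the inhibitor of apoptosis, was at 42.4, 38.7 and 25.8 FPKM and at 61.9, 62.6 and 57.2 FPKM, also without overlap (-0.78, SE 0.18, adjusted p = 0.00886). MYC was at 124, 129.9 and 131 FPKM in SUDHL6 and at 155, 157 and 126 FPKM in SUDHL4, where replicate 3 fell among the SUDHL6 values (-0.18, SE 0.10, adjusted p = 0.166). Without SUDHL4 replicate 3 the MYC difference was -0.28 and was called (adjusted p = 0.0246, with 0.011 to 0.407 over 18 alternatives). EZH2, the histone methyltransferase, was at 38.5, 43.4 and 56.3 FPKM in SUDHL6 and at 39.0, 37.9 and 39.1 FPKM in SUDHL4 and was not called (0.23, 95% interval -0.11 to 0.57).

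**Figure D3:**
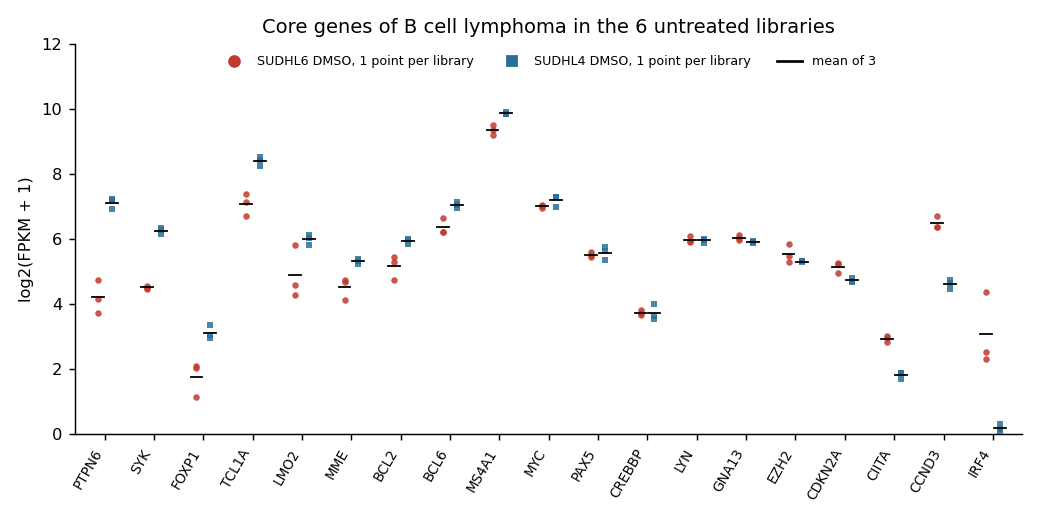
The 19 core genes reported, ordered by their difference, as log2(FPKM + 1) with 1 point per untreated library (red circles SUDHL6, blue squares SUDHL4) and the mean of 3 as a bar. PTPN6, at the left, is lowest in SUDHL6 relative to SUDHL4 and IRF4, at the right, highest; LMO2 and IRF4 have 1 SUDHL6 library, replicate 3, well above the other 2.

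Genes of the B cell lineage differed little, apart from a few. The lineage factor PAX5 was at 42.9, 44.3 and 47.1 FPKM in SUDHL6 and at 48.6, 52.9 and 40.1 FPKM in SUDHL4. The values overlapped and the gene was not called (-0.07, 95% interval -0.34 to 0.20). It was called lower only without replicate 3 of both lines (-0.21, adjusted p = 0.0438, with 0.0438 to 0.909 over its alternatives). MS4A1, which encodes CD20, was at 648, 594 and 729.6 FPKM and at 968, 912 and 924 FPKM, lower in each SUDHL6 library (-0.51, SE 0.10, adjusted p = 0.00415). Of 19 tested genes of the list 2 were higher, 7 lower and 10 not called in SUDHL6, against 35.2% higher and 31.6% lower over all loci, and without SUDHL4 replicate 3 or with median-ratio scaling 1 was higher. EBF1, an early B cell factor, was at 3.33, 3.69 and 4.28 FPKM against 16.3, 16.7 and 16.7 FPKM (-1.88, adjusted p = 1.25e-05), and the scaffold BANK1 (-1.67) and the kinase BLK (-0.86) were lower too. CIITA, the master regulator of MHC class II, was higher in SUDHL6, at 6.07, 6.78 and 7.14 against 2.71, 2.71 and 2.21 FPKM (1.11, adjusted p = 0.000122).

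Germinal centre identity genes were mostly lower in SUDHL6. Of 24 tested genes 18 were lower and 4 higher, against 31.6 and 35.2% of all loci, and 11 of the 18 differed by at least 1. The median log2 difference of the list was -0.95, against 0.04 over all loci. Without SUDHL6 replicate 3 the counts were 17 lower and 4 higher. SERPINA9, a serpin that marks germinal centre B cells, was at 2.53, 3.16 and 4.47 FPKM in SUDHL6 and at 57.9, 58.1 and 55.5 FPKM in SUDHL4 (-3.75, SE 0.16, adjusted p = 7.61e-06). MEF2C, shown above, and the adhesion kinase PTK2 (-2.40) led the list with it, and MME, the surface enzyme CD10, was lower as well, at 24.7, 25.8 and 16.6 against 41.2, 36.5 and 39.0 FPKM (-0.80, adjusted p = 0.00579). SERPINA9, PTK2 and MME did not overlap between the lines, like 73.3% of all tested loci. LMO2, a transcriptional cofactor used to recognise the germinal centre type, was at 18.3, 22.8 and 55.4 FPKM in SUDHL6 and at 64.6, 68.3 and 55.3 FPKM in SUDHL4. SUDHL6 replicate 3 lay within the SUDHL4 values, and the call (-1.10, adjusted p = 0.0422) was lost in 8 of 18 alternatives, with adjusted p up to 0.124 and a difference of -1.66 without replicate 3 of both lines. Higher in SUDHL6 were SWAP70 (1.29), a B cell guanine exchange factor, BCL7A (0.77) and GCSAM (0.66).

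The signature of the activated B cell type, the other main class of this lymphoma, was split. Of 20 tested genes 8 were higher and 9 lower in SUDHL6, 7 and 5 of them by at least 1. Over all loci 35.2% were higher and 31.6% lower, 9.93 and 12% by at least 1. Leaving out SUDHL6 replicate 3 gave 8 higher and 12 lower, and leaving out SUDHL4 replicate 3 gave 8 and 8. IRF4, a factor of plasma cell differentiation, was at 3.98, 4.80 and 19.6 FPKM in SUDHL6 and at 0.107, 0.0758 and 0.245 FPKM in SUDHL4. SUDHL6 replicate 3 held the highest value, and the other 2 libraries still stood above SUDHL4 (2.88, SE 0.52, adjusted p = 0.00297). IRF4 passed the filter only through the SUDHL6 libraries. BATF, an AP-1 factor, had the same shape, at 12.5, 11.7 and 63.2 FPKM and 1.797, 1.23 and 1.81 FPKM (3.10, adjusted p = 0.00447). FOXP1 was lower, at 3.09, 3.28 and 1.21 against 6.85, 7.23 and 9.32 FPKM (-1.37, adjusted p = 0.00434), as were the adaptor SLA (-2.78), IL16 (-1.37) and MARCKSL1 (-1.299). PRDM1, the plasma cell repressor BLIMP1, was listed at 0 in all SUDHL6 libraries and reached 0.0136 FPKM in 1 SUDHL4 library. Of 5 tested plasma cell genes 1 was higher and 2 lower, which became 1 and 1 without SUDHL4 replicate 3, 2 and 2 without SUDHL6 replicate 3 and 2 and 1 with quantile normalization. XBP1 was higher (1.304), SEC11C lower (-1.38), and JCHAIN, listed as IGJ, was at 354, 221 and 39.6 FPKM in SUDHL6 and at 670.4, 615 and 673 FPKM in SUDHL4. The IGJ call (-2.15, adjusted p = 0.0427) was lost in 7 of 18 alternatives, and without SUDHL6 replicate 3 the difference was -1.22 (adjusted p = 0.00246, with 0.00246 to 0.107 over the alternatives).

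Most dark zone and cell division genes tested were higher in SUDHL6. Of 10 dark zone genes 8 were higher, 7 of them by at least 1, and 1, FOXO1, was lower (-0.36, adjusted p = 0.0416). The FOXO1 call was lost in 6 of 18 alternatives, including the fit without SUDHL4 replicate 3. Without SUDHL6 replicate 3 or with median-ratio scaling, 5 dark zone genes were higher by at least 1. Of 24 S phase genes 14 were higher, 0 lower and 10 not called, and of 18 genes of G2 and mitosis 14 were higher, 0 lower and 4 not called. Over all loci 35.2% were higher and 31.6% lower, and 9.93% were higher by at least 1. MKI67, the proliferation marker Ki-67, was at 50.8, 58.5 and 71.7 FPKM in SUDHL6 and at 20.3, 22.9 and 20.5 FPKM in SUDHL4 (1.45, SE 0.13, adjusted p = 0.000157). CXCR4, the chemokine receptor that holds cells in the dark zone, was at 109, 109 and 75.6 against 33.1, 35.2 and 42.4 FPKM (1.37, adjusted p = 0.000579). Both genes separated the lines in every library, like 73.3% of all tested loci. CDC20, the activator of the anaphase-promoting complex (1.35), the replication helicase subunit MCM3 (1.57), the licensing factor CDT1 (1.52), the ligase LIG1 (1.41), the mitotic kinesin KIF23 (1.20), the mitotic kinase AURKB (1.07) and TPX2 (0.91) were higher too. The dark zone list also holds mitotic genes, so the lists are not independent. MCM3 was at 155, 199 and 234 FPKM in SUDHL6, highest in replicate 3, against 65.9, 70.2 and 58.3 FPKM in SUDHL4. Without SUDHL6 replicate 3 the S phase counts were 13 higher and 2 lower, without SUDHL4 replicate 3 they were 10 and 0, and without both libraries 10 and 3, while those of G2 and mitosis were 14 and 0 in each.

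Light zone and activation genes gave 3 higher and 3 lower of 12, against 35.2 and 31.6% of all loci. CD80, a costimulatory ligand for T cells, was at 11.5, 11.1 and 11.5 FPKM in SUDHL6 and at 0.729, 0.710 and 0.845 FPKM in SUDHL4 (2.81, SE 0.07, adjusted p = 1.13e-06). BCL2A1, an NF-kB-induced inhibitor of apoptosis, was lower, at 1.12, 1.33 and 6.398 against 19.1, 15.4 and 15.7 FPKM, highest among SUDHL6 libraries in replicate 3 (-2.41, adjusted p = 0.00411). CR2, the complement receptor CD21, was near 0 in SUDHL6 and at 1.42, 1.56 and 1.33 FPKM in SUDHL4 (-1.20).

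Transducers of the B cell receptor signal were more often lower than higher in SUDHL6, with 16 of 27 lower and 5 higher, against 31.6 and 35.2% of all loci, and 16 and 3 without SUDHL4 replicate 3. SYK was at 22.7, 21.3 and 21.5 FPKM in SUDHL6 and at 76.2, 80.6 and 70.2 FPKM in SUDHL4. The lines were fully apart with little spread (-1.75, SE 0.08, adjusted p = 8.76e-06), a ratio of means of 3.47. LYN, which acts just before SYK, was at 59.8, 59.1 and 67.5 FPKM in SUDHL6 and at 62.3, 63.2 and 58.1 FPKM in SUDHL4 and was not called (0.02, 95% interval -0.17 to 0.22). BLNK, the adaptor that SYK phosphorylates, was higher in SUDHL6, at 49.2, 58.5 and 65.1 against 27.2, 30.4 and 25.6 FPKM (1.02, adjusted p = 0.000469). The exchange factor VAV3 (-1.88) and the calcium channel ITPR2 (-1.55) were lower. CD79A, CD79B and BTK lay in loci shared with other genes and have no value of their own.

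Of 15 inhibitors of the receptor 11 were lower, 7 of them by at least 1, while 1 was higher and 3 were not called. Over all loci 31.6% were lower and 12% lower by at least 1. PTPN6 was at 16.8, 12.3 and 25.6 FPKM in SUDHL6 and at 146, 149.6 and 122 FPKM in SUDHL4, without overlap (-2.92, SE 0.25, adjusted p = 0.000113), a ratio of means of 7.62. SIGLEC10, an inhibitory lectin, was at 1.03, 0.959 and 0.348 against 23.8, 26.1 and 21.4 FPKM (-3.82, adjusted p = 1.02e-05). PTPRJ, the receptor phosphatase CD148, which can also activate SRC family kinases, was at 0.283, 0.358 and 0.635 against 12.8, 13.2 and 11.8 FPKM (-3.26, adjusted p = 3.43e-06). CBLB, a ubiquitin ligase that limits the receptor signal, was the exception at 20.3, 22.6 and 21.2 FPKM in SUDHL6 and 5.03, 4.56 and 6.23 FPKM in SUDHL4 (1.84, adjusted p = 3.13e-05). Transducers and inhibitors of the receptor were thus both lower in most of their called members, with medians of -0.62 and -0.79.

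**Figure D4:**
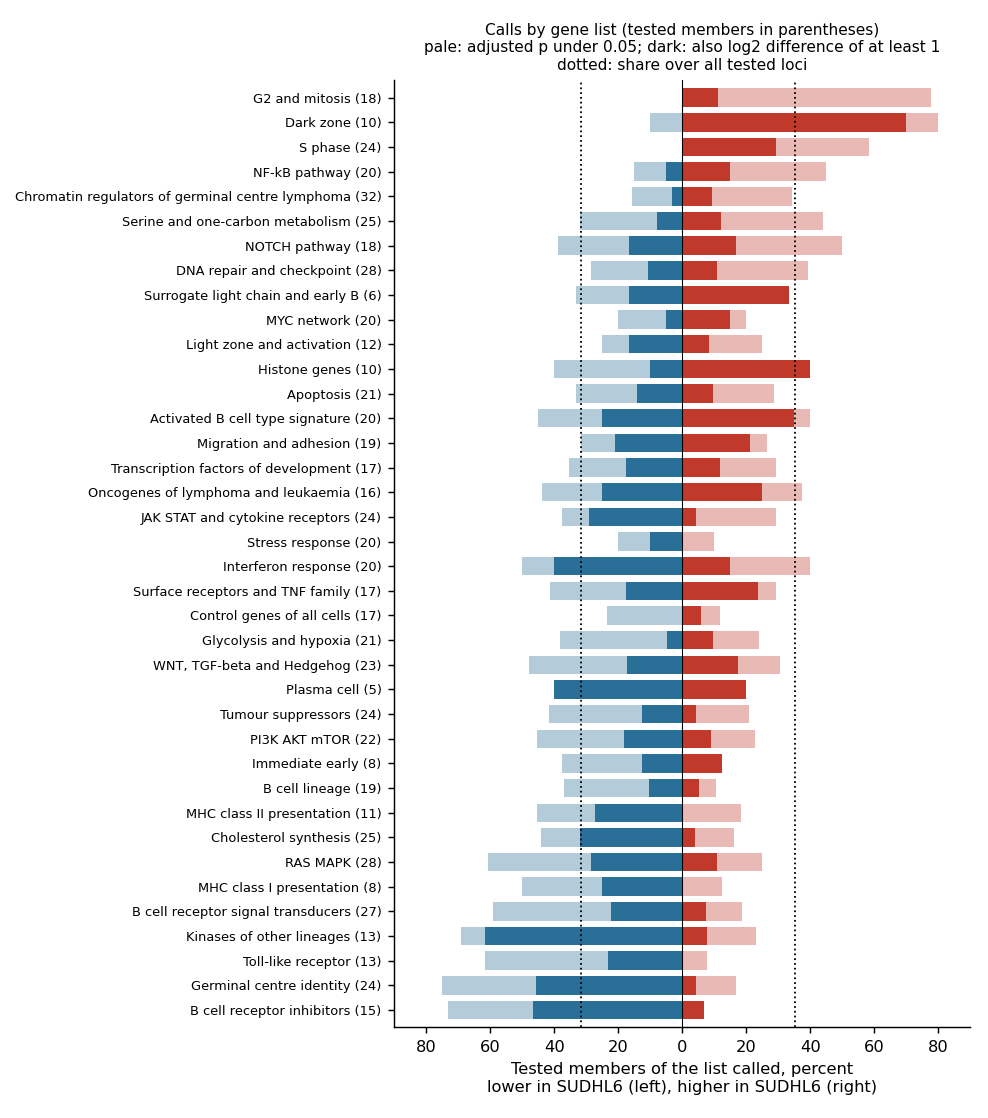
Share of each list's tested members that were called lower (left, blue) or higher (right, red) in untreated SUDHL6, for 38 lists with at least 5 tested members; pale bars are all calls, dark bars those with a log2 difference of at least 1, and dotted lines the shares over all tested loci (31.6 and 35.2%). Genes of G2 and mitosis, the dark zone and S phase lie at the top, and germinal centre identity and B cell receptor inhibitors at the bottom.

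In the PI3K pathway 5 of 22 genes were higher and 10 lower, against 35.2 and 31.6% of all loci. Leaving out SUDHL6 replicate 3 gave 6 higher and 13 lower, and leaving out SUDHL4 replicate 3 gave 4 and 9. The insulin receptor INSR was at 9.81, 12.8 and 10.7 FPKM in SUDHL6 and at 0.140, 0.186 and 0.243 FPKM in SUDHL4 (3.34, adjusted p = 3.12e-06), and the mTOR inhibitor DEPTOR was at 78.3, 73.4 and 63.4 against 14.9, 15.1 and 13.3 FPKM (2.23, adjusted p = 9.75e-06). Each was higher in every SUDHL6 library, and INSR passed the filter only through these libraries. Lower were the catalytic subunit PIK3CA (-1.51), the AKT phosphatase PHLPP1 (-1.35) and the AKT coactivator TCL1A, which was at 165, 141 and 104 against 346, 363 and 302 FPKM (-1.32, adjusted p = 0.000818).

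Named NF-kB subunits differed in both directions, within a list that had 9 of 20 genes higher and 3 lower, against 35.2 and 31.6% of all loci. NFKB2 and RELB, the subunits of the noncanonical arm, were higher, NFKB2 at 26.0, 31.9 and 22.6 against 8.34, 8.73 and 8.08 FPKM (1.56, adjusted p = 9.58e-05) and RELB at 26.5, 27.9 and 23.4 against 11.6, 12.4 and 10.9 FPKM (1.09, adjusted p = 0.000106). NFKB1, the p50 precursor of the canonical arm, was lower, at 9.90, 11.05 and 15.9 against 29.9, 33.0 and 28.5 FPKM (-1.27, adjusted p = 0.000798). None of the 3 overlapped between the lines, which is also the case at 73.3% of all tested loci. The deubiquitinase CYLD (-0.97), which restrains the pathway, and the kinase MAP3K7 (-0.87) were lower, and the inhibitor NFKBIB (1.14) was higher. Without SUDHL6 replicate 3 the counts were 9 higher and 6 lower, and without replicate 3 of both lines 7 were lower.

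Cytokine receptors and their transducers gave 7 higher and 9 lower of 24, with 7 of the 9 lower by at least 1. Over all loci 35.2% were higher and 31.6% lower, and 12% were lower by at least 1. STAT5A was at 0.273, 0.321 and 0.173 FPKM in SUDHL6 and at 6.43, 6.72 and 6.57 FPKM in SUDHL4, and its neighbour and paralog STAT5B at 7.13, 7.05 and 7.73 against 38.2, 39.0 and 37.6 FPKM. Both were lower in every SUDHL6 library (-2.59 and -2.24, adjusted p = 2.3e-06 and 2.31e-06). STAT5A passed the filter only through the SUDHL4 libraries. CSF2RB, whose receptors signal through STAT5, was shown above. IL10RA, a chain of the IL-10 receptor, was higher, at 15.1, 16.7 and 10.7 against 5.15, 5.34 and 4.16 FPKM (1.35, adjusted p = 0.00063), as were the kinase TYK2 (0.65) and IL27RA (0.63).

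In the RAS and MAPK list 17 of 28 genes were lower and 7 higher, against 31.6 and 35.2% of all loci. RASGRP1 and RASGRP2, exchange factors that switch on RAS and RAP proteins, were both near 1 FPKM in SUDHL6. RASGRP1 was at 1.02, 1.19 and 0.638 FPKM in SUDHL6 and at 24.9, 24.3 and 25.9 FPKM in SUDHL4. RASGRP2 was at 1.04, 0.878 and 0.775 FPKM in SUDHL6 and at 19.9, 20.1 and 17.3 FPKM in SUDHL4, and each gene's SUDHL4 values lay far above its SUDHL6 values (-3.75 and -3.41, adjusted p = 2.85e-06 and 1.65e-06). DUSP6, the ERK phosphatase induced by ERK itself, was lower too (-1.67), while HRAS was at 36.5, 39.4 and 43.6 against 15.8, 16.1 and 13.7 FPKM (1.34, adjusted p = 6.47e-05) and the p38 kinase MAPK13 was higher (2.54). Toll-like receptor genes, read against the same shares, had 8 of 13 lower and 1 higher, with CD180 (-1.44), SIGIRR (-1.33) and IRAK2 (-1.10) lower and TOLLIP (0.77) higher.

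Oncogenes of lymphoma and leukaemia gave 6 higher and 7 lower of 16, against 35.2 and 31.6% of all loci. CCND3, the D-type cyclin used by germinal centre B cells, was at 82.4, 103 and 81.4 FPKM in SUDHL6 and at 24.1, 25.9 and 21.1 FPKM in SUDHL4 (1.86, SE 0.12, adjusted p = 4.43e-05), and its relative CCND2 stayed at or below 0.269 FPKM in all 6 libraries. FGFR1, a receptor tyrosine kinase, was at 5.28, 5.58 and 10.4 FPKM in SUDHL6, highest in replicate 3, and at 0.0178, 0.0309 and 0.0413 FPKM in SUDHL4 (2.92, adjusted p = 8.01e-05). FGFR1 passed the filter only through the SUDHL6 libraries. BCL3 was higher (1.66), and LYL1 (-1.82), JUNB (-1.33) and ABL1 (-1.02) were lower. The MYC network had 4 higher and 4 lower of 20, a balance that turned to 4 and 5 with median-ratio scaling and to 5 and 4 with quantile normalization, and without replicate 3 of both lines 7 were lower. TERT, the catalytic subunit of telomerase, was at 3.40, 6.60 and 8.84 against 0.906, 0.766 and 0.747 FPKM (1.94, adjusted p = 0.00113), and ODC1, an enzyme of polyamine synthesis, was lower (-0.64).

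Among 24 tumour suppressors 5 were higher and 10 lower, against 35.2 and 31.6% of all loci. CDKN2A, which encodes p16 and p14ARF, was slightly higher at 30.2, 36.7 and 37.6 against 27.1, 25.04 and 24.9 FPKM (0.42, adjusted p = 0.00979). TNFRSF14, the receptor HVEM, was at 0.276, 0.151 and 0.202 FPKM in SUDHL6 and at 4.27, 4.48 and 4.46 FPKM in SUDHL4 (-2.16, adjusted p = 3.66e-06), and FHIT (-1.73) and the inhibitor CDKN2D (-1.29) were lower. PMAIP1, the death protein NOXA, was at 12.5, 13.2 and 12.1 FPKM in SUDHL6 and at 48.9, 43.3 and 84.2 FPKM in SUDHL4, highest in SUDHL4 replicate 3 (-2.07, adjusted p = 0.00041). GADD45A, a growth arrest gene, was at 2.67, 2.94 and 2.84 against 15.7, 14.8 and 13.9 FPKM (-2.05, adjusted p = 5.12e-06), while the repair factor DDB2 (1.04) and FDXR (0.88) were higher. Apoptosis genes had 6 higher and 7 lower of 21, and the TRAIL decoy receptor TNFRSF10D was at 0.0366, 0.0182 and 0.0303 FPKM in SUDHL6 and at 7.17, 7.52 and 20.2 FPKM in SUDHL4, where replicate 3 was highest (-3.47, adjusted p = 0.000268). TNFRSF14 and TNFRSF10D each passed the filter only through the SUDHL4 libraries.

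Of 32 tested genes on a list of chromatin regulators of germinal centre lymphoma 16 were called, 11 higher and 5 lower. Over all loci 66.8% were called, 35.2% higher and 31.6% lower. The linker histone HIST1H1C was at 14.6, 13.1 and 18.5 FPKM in SUDHL6 and at 0.656, 0.772 and 0.776 FPKM in SUDHL4 (3.23, adjusted p = 6.19e-06). CREBBP, the acetyltransferase, was at 12.1, 13.1 and 11.7 FPKM in SUDHL6 and at 10.7, 11.5 and 15.04 FPKM in SUDHL4 and was not called (95% interval of the difference -0.32 to 0.32). SETD1B (1.36) and the DNA methyltransferase DNMT3A (1.26) were higher and PHF6 (-0.90) lower. Histone genes gave 4 higher and 4 lower of 10, and 6 and 3 with quantile normalization. Those higher were HIST1H2AC (1.40), HIST1H2BJ (1.76), HIST1H2BK (1.36) and HIST1H4H (2.07), genes of the histone cluster on chromosome 6, whose members are close in sequence, so that the division of reads between them is uncertain. Those lower were the linker histone H1FX (-1.75) and the variant histone genes H2AFZ (-0.50), H3F3A (-0.40) and H3F3B (-0.69).

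Antigen presentation was mixed. HLA-DRA, the alpha chain of the class II molecule HLA-DR, was at 782, 651 and 949 FPKM in SUDHL6 and at 1988, 1940.0 and 1995 FPKM in SUDHL4, lower in each SUDHL6 library (-1.33, SE 0.15, adjusted p = 0.000329), although CIITA was higher there. HLA-DMB, part of the class II peptide editor, was higher, at 188, 159.9 and 260.3 against 108, 108 and 95.8 FPKM (0.93, adjusted p = 0.00402). The lysosomal proteases LGMN (-2.06) and CTSH (-1.72) were lower. The list had 2 higher and 5 lower of 11, against 35.2 and 31.6% of all loci. In the class I list, with 1 higher and 4 lower of 8, NLRC5, the class I transactivator, was at 0.0275, 0.0302 and 0.0251 FPKM in SUDHL6 and at 1.94, 2.00 and 1.60 FPKM in SUDHL4 (-1.47, adjusted p = 2.41e-05), and the immunoproteasome subunit PSMB9 was at 4.55, 8.19 and 7.09 against 25.2, 23.7 and 21.1 FPKM (-1.70, adjusted p = 0.000374). NLRC5 passed the filter only through the SUDHL4 libraries.

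Interferon response genes went both ways, with 8 of 20 higher, 10 lower and 2 not called. Over all loci 35.2% were higher and 31.6% lower. MX2 was at 17.2, 19.6 and 25.5 FPKM in SUDHL6 and at 0.194, 0.170 and 0.246 FPKM in SUDHL4 (4.16, SE 0.14, adjusted p = 3.62e-06), and IRF7, the factor that amplifies interferon production, was at 10.2, 13.9 and 11.1 against 2.43, 2.80 and 2.64 FPKM (1.81, adjusted p = 4.28e-05). ISG15, a ubiquitin-like modifier, was at 2.31, 3.15 and 6.83 against 50.9, 44.7 and 35.4 FPKM (-3.22, adjusted p = 0.000228), and IFITM2, a restriction factor of virus entry, was at 13.3, 11.9 and 13.5 against 153, 154 and 141 FPKM (-3.43, adjusted p = 8.87e-07). All 4 genes separated the lines completely, like 73.3% of all tested loci. SP110 (1.83) was higher and PARP9 (-2.26) lower. MX2 passed the filter only through the SUDHL6 libraries.

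Adhesion genes held some of the widest gaps. ITGB1, the beta 1 integrin, was at 3.26, 2.11 and 3.19 FPKM in SUDHL6 and at 75.03, 70.6 and 80.7 FPKM in SUDHL4 (-4.32, SE 0.14, adjusted p = 2.94e-06). ITGB2, the leukocyte beta 2 integrin, was at 1.00, 1.29 and 7.52 against 60.7, 63.1 and 52.96 FPKM, highest among the SUDHL6 libraries in replicate 3 (-4.14, adjusted p = 0.000683). In contrast S100A10, a partner of annexin A2, was at 18.6, 15.9 and 85.5 FPKM and 1.41, 1.16 and 1.27 FPKM and the lectin LGALS3 at 5.47, 6.19 and 22.0 FPKM and 0.395, 0.244 and 0.184 FPKM. Both were higher in SUDHL6 and several times higher again in its replicate 3 (3.75 and 3.01, adjusted p = 0.00177 and 0.00161). The list had 5 higher and 6 lower of 19, against 35.2 and 31.6% of all loci. Among surface receptors, with 5 higher and 7 lower of 17, the Fc receptor-like FCRL3 was at 83.2, 113 and 85.9 FPKM in SUDHL6 and at 6.26, 6.05 and 5.94 FPKM in SUDHL4 (3.73, adjusted p = 3.42e-06), FCRL5 (2.63) and HAVCR2 (2.14) were higher, and LY9 (-2.25) and TNFSF8 (-1.70) were lower.

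Developmental pathways differed member by member, and over all loci 35.2% were higher and 31.6% lower. In the NOTCH list 9 of 18 were higher and 7 lower, with DTX4 (1.29), HES1 (1.06) and DLL3 (1.05) higher and NRARP (-1.47), MAML3 (-1.39) and NOTCH1 (-1.01) lower. In the WNT, TGF-beta and Hedgehog list 7 of 23 were higher and 11 lower. LRP6, a WNT coreceptor, was listed at 0 in all SUDHL6 libraries and was at 3.45, 4.06 and 4.34 FPKM in SUDHL4, and its relative LRP5 was at 0.0247, 0.0246 and 0.202 against 5.14, 4.86 and 3.58 FPKM (-2.34, adjusted p = 2.65e-05). LRP5 and LRP6 passed the filter only through the SUDHL4 libraries. BMP7 was higher in SUDHL6, at 54.3, 58.3 and 47.4 against 26.0, 27.3 and 23.6 FPKM (1.03, adjusted p = 0.00021). Of 13 kinases typical of other lineages 9 were lower and 3 higher, against 31.6 and 35.2% of all loci. Those lower were led by the myeloid kinases FGR (-3.06) and FES (-2.76) and by MAP3K8 (-2.94).

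Metabolic genes showed single large steps within mixed lists. In serine and one-carbon metabolism 11 of 25 were higher and 8 lower, against 35.2 and 31.6% of all loci. Besides PHGDH, the serine transporter SLC1A4 (1.68) and the folate enzyme MTHFD1 (1.09) were higher, and CBS (-1.25) and the mitochondrial folate enzyme MTHFD2 (-0.96) lower. PSAT1, which acts right after PHGDH and was looked up after its value was seen, was lower, at 15.5, 25.1 and 23.3 FPKM in SUDHL6 and 35.2, 35.1 and 44.5 FPKM in SUDHL4 (-0.84, adjusted p = 0.00875). IDH2 was at 24.1, 26.5 and 87.1 against 103, 107 and 90.1 FPKM, and its call (-1.36, adjusted p = 0.0402) was lost in 8 of 18 alternatives, with adjusted p up to 0.122. Without SUDHL6 replicate 3 it was -2.01. Cholesterol synthesis, read against the same shares, had 11 of 25 lower and 4 higher. Leaving out SUDHL6 replicate 3 gave 15 lower and 3 higher, and leaving out SUDHL4 replicate 3 gave 9 and 3. FDFT1, squalene synthase, was at 63.2, 70.5 and 81.6 FPKM in SUDHL6 and at 448, 469 and 452 FPKM in SUDHL4 (-2.66, SE 0.10, adjusted p = 5.82e-06), and INSIG1, which retains the sterol sensor in the endoplasmic reticulum, at 31.6, 36.8 and 41.2 against 181, 182 and 196 FPKM (-2.32, adjusted p = 1.08e-05). CYP51A1 was higher (1.11). Glycolysis and hypoxia genes gave 5 higher and 8 lower of 21, with VEGFA (1.17) and SLC2A3 (1.34) higher and LDHB (-0.90) and HIF1A (-0.997) lower.

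DNA repair genes gave 11 higher and 8 lower of 28, against 35.2 and 31.6% of all loci. Apart from MGMT, the helicase WRN was at 3.21, 2.78 and 3.40 FPKM in SUDHL6 and at 15.7, 14.8 and 15.5 FPKM in SUDHL4 (-1.99, adjusted p = 7.27e-06), and FANCA (1.65) and CLSPN (1.36) were higher. Of 20 stress response genes 2 were higher, 4 lower and 14 not called, and without SUDHL4 replicate 3 the counts were 4 higher and 3 lower, and without SUDHL6 replicate 3 1 was higher. SESN3, a stress-induced regulator of mTOR, was at 1.57, 0.994 and 1.35 against 19.2, 18.1 and 23.1 FPKM (-3.20, adjusted p = 6.99e-06). TRIB3 was at 2.33, 3.11 and 6.58 FPKM in SUDHL6 and at 17.6, 16.5 and 30.5 FPKM in SUDHL4, highest within each line in replicate 3 (-2.21, adjusted p = 0.00189). Of the other lists, developmental transcription factors had 5 higher and 6 lower of 17, immediate early genes 1 higher and 3 lower of 8 (3 and 3 without SUDHL4 replicate 3), early B cell genes 2 and 2 of 6, and both measured cancer testis genes, PRAME and SYCP3, were lower. The SYCP3 call was lost with quantile normalization (-0.31, adjusted p = 0.0568, with 0.00233 to 0.0568 over its alternatives).

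Control genes of all cells were not all alike between the lines. Of 17 tested 11 were not called, 2 were higher and 4 lower in SUDHL6, against 35.2% higher and 31.6% lower over all loci. With quantile normalization 5 were higher and 2 lower. SDHA (0.03) and RPLP0 (0.03) differed least, with signs that turned in some of the alternatives. With quantile normalization RPLP0 was called higher (0.63, adjusted p = 0.000168, with 0.000168 to 0.959 over its alternatives). HPRT1 was at 36.8, 39.8 and 53.6 against 85.9, 81.3 and 86.3 FPKM (-0.96, adjusted p = 0.00123), and the beta tubulin TUBB was at 1124, 1116 and 1572 against 459, 478 and 420.1 FPKM (1.47, adjusted p = 0.000265). Among highly expressed genes with the narrowest intervals, HCLS1 was lower, at 132, 129.9 and 128 FPKM in SUDHL6 and 164, 169 and 165 FPKM in SUDHL4 (-0.35, 95% interval -0.50 to -0.20, adjusted p = 0.00264), and TMEM243 was at 64.7, 63.7 and 66.1 FPKM in SUDHL6 and at 61.5, 59.3 and 62.5 FPKM in SUDHL4 and was not called (0.08, interval -0.06 to 0.23, adjusted p = 0.266).

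The calls were uneven along the genome. On chromosome 6 55.1% of 572 tested loci were higher in SUDHL6 and on chromosome 19 49.8% of 765, against 35.2% of all. On chromosome 13 67% of 203 were lower, on chromosome 4 54.4% of 366 and on chromosome 12 50.7% of 584, against 31.6%. Runs of neighbours were found by windows of 20 consecutive tested loci with at least 16 calls in 1 direction, which gave 16 runs higher and 19 lower in SUDHL6. Because calls chose these runs, their values are a description. Of the called differences of at least 1, runs of their own direction held 26.8% of those higher and 22.8% of those lower, and 7.07 and 7.04% of the tested loci.

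A pair of blocks, on chromosomes 6 and 8, were described further. Chromosome 6 held 3 runs of higher loci, the first of which begins with IRF4. The block was drawn from the first tested locus of the chromosome to the end of the last of these runs, 123968 to 53788919 in hg19, so its start was set and not found. In it 256 of 328 loci were higher in SUDHL6 and 19 lower, with a median log2 difference of 1.02. Over the rest of that chromosome 59 of 244 were higher and 85 lower, with a median of -0.09. Taken 1 library at a time against the SUDHL4 mean, the median of the block was 0.985, 0.983 and 1.05 in SUDHL6 replicates 1, 2 and 3. Against the 3 untreated libraries of the Farage line, used only as a reference, the median was 0.991 for SUDHL6 and -0.04 for SUDHL4. On chromosome 8 a single run reached from the first tested locus, at 14047, to 38070908, and in it 95 of 105 loci were lower in SUDHL6 and 3 higher, with a median of -1.37. There the median against Farage was -0.93 for SUDHL6 and 0.60 for SUDHL4, and over the rest of the chromosome the difference between the lines was 0.11.

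**Figure D5:**
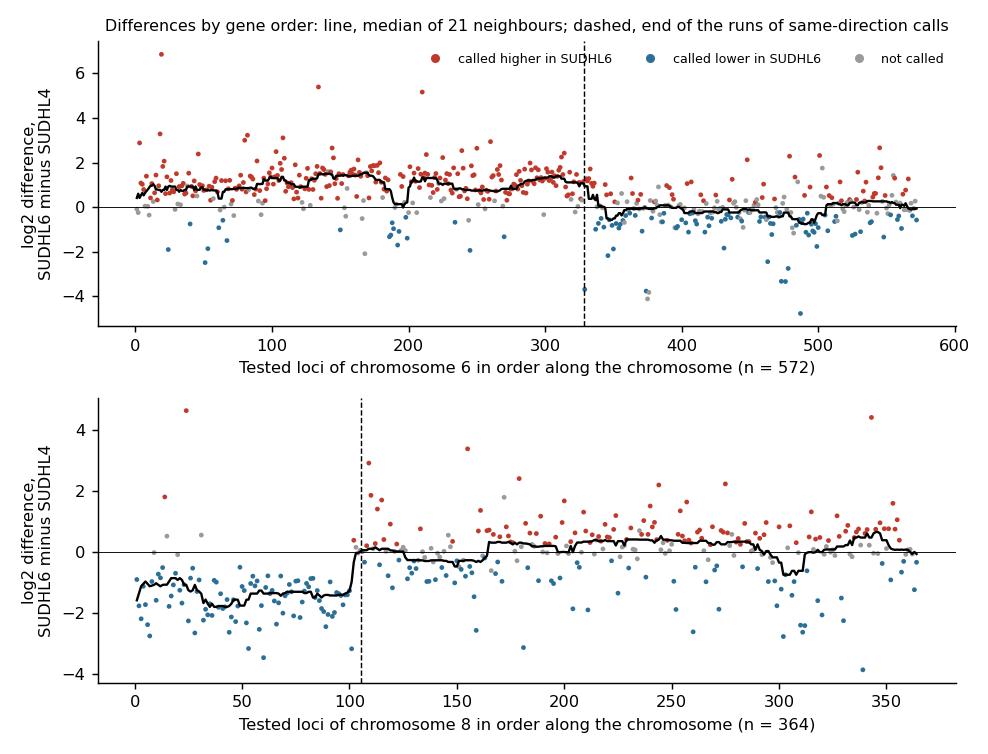
Log2 difference (SUDHL6 minus SUDHL4, untreated) of each tested locus of chromosome 6 (upper panel, 572 loci) and chromosome 8 (lower panel, 364 loci) in order along the chromosome, coloured by call, with the median of 21 neighbours as a line and the end of the runs dashed. The line lies around the block's median of 1.02 over the first 328 loci of chromosome 6, with a dip where HLA-DRA, PSMB9 and HLA-DOA lie, and around -1.37 over the first 105 of chromosome 8, and moves about 0 after each dashed line.

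Several genes described above lie in these blocks, and those named here for the first time were chosen for their place after their values were seen. Of the list members in the block of chromosome 6, 35 were tested, with 19 higher, 3 lower and 13 not called. Over all loci of that block 78% were higher and 5.79% lower. Those higher include IRF4, CCND3, MAPK13, HIST1H1C, MCM3, VEGFA and TUBB, and those lower are HLA-DRA, PSMB9 and HLA-DOA. In the block of chromosome 8 all 8 list members were lower, namely BLK, the adaptor DOK2, TNFRSF10A, TNFRSF10B, TNFRSF10D, BNIP3L, FDFT1 and WRN. Lower calls had chosen that block, and 90.5% of all its loci were lower, so the count of members says nothing further. FGFR1, higher in SUDHL6, lies on chromosome 8 beyond that block. The difference within a block was not uniform, since IRF4 differed by 2.88 and BAK1 by 0.98 on chromosome 6, and FDFT1 by -2.66 and BLK by -0.86 on chromosome 8.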

How the data were processed

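The deposited table holds 1 FPKM value per locus and library for all 18 libraries of the series, and the 6 untreated SUDHL6 and SUDHL4 columns were used. Per the submitters' processing notes, CASAVA 1.8, TopHat2 and Cufflinks were used with hg19, in roles and with options not given in the sources used here, like the gene annotation, the strandedness and any scaling between libraries. The authors' FPKM values are not counts, so no count test was run, and the absolute depth is unknown.

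Values were tested as log2(FPKM + 1) with limma 3.58.1 in R 4.3.3 (1 mean per line, empirical Bayes with an intensity trend, Benjamini-Hochberg adjustment over all 10686 loci, called at an adjusted p under 0.05). Differences are SUDHL6 minus SUDHL4 and understate the change of low genes. Whether the 3 libraries of a line came from separate cultures is not given. Tables and figures used Python 3.11.15, numpy 2.4.6, pandas 2.3.3 and matplotlib 3.10.9. On simulated data with 200 of 10686 genes changed, 80% of changes of 1 and 39% of changes of 0.5 (log2) were called, and 5.56% of calls were false. The simulation changed few genes and no low ones, whereas 66.8% of loci were called in the data. These shares therefore do not carry over to the calls reported here. Loci that merge several genes (1321 of those tested) were counted in totals and not attributed to 1 gene.

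Members and the 40 gene lists were chosen with earlier results of these data known. The lists hold 1201 genes, of which 720 were tested, 312 were below the filter, 168 lay in merged loci and 1 had no locus. Genes were named as core genes, as the 15 largest called differences without overlap per direction (mean of at least 5 FPKM in the higher line), as up to 3 called members per list and direction, as up to 10 genes per line read only there, as the control genes with the smallest and largest differences, and as the 8 genes above 50 FPKM with the narrowest intervals. Small RNAs, uncharacterised symbols and genes of the sex-determining chromosome were not eligible, and some genes are not reported here. The alternatives were other pseudocounts and filters, scalings, the fit on all 18 libraries, priors, unique names, a replicate block and leaving out each library.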

Additional observations from a re-analysis of the deposited data

Results flagged for a closer look

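These 4 loci carried signal outside the comparison, since they have no gene name or, for the first, no value in the other libraries. The locus of the mitochondrial chromosome was at 2425 FPKM in SUDHL6 replicate 3 and was listed at 0 in the other 5 untreated libraries. An unnamed locus of chromosome 2, from 89231191 to 89630149 in hg19, was at 126 FPKM in SUDHL6 replicate 1, at 130.03 in replicate 2 and at 2.38 in replicate 3, and was listed at 0 in all 3 SUDHL4 libraries. In the SUDHL6 libraries given the BCL6 inhibitor it was at 79.4, 80.9 and 0.792 FPKM, so replicate 3 was the low library there too.

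On chromosome 14, from 106086765 to 106331653, a pair of unnamed loci shared the span of ELK2AP, a pseudogene for which 12 of the 16 nearest RefSeq neighbours carry immunoglobulin symbols. The first was at 121, 129 and 104 FPKM in SUDHL6 and at 0.0291, 0.0252 and 0.0270 FPKM in SUDHL4. The second was at 0.877 and 0.872 FPKM in SUDHL6 replicates 1 and 2, was listed at 0 in replicate 3, and was at 90.6, 88.2 and 64.1 FPKM in SUDHL4. The difference between the lines at these unnamed loci was not tested.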

How the results depend on the processing

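Counts of called loci kept within 1.5 times under all 18 alternatives, with 1 exception for each direction: a mean of at least 5 FPKM left 690 loci higher and 823 lower in SUDHL6 by at least 1, among 7857 tested. Leaving out 1 library gave 3195 to 3822 higher and 2946 to 3710 lower. With median-ratio scaling 3581 were higher and 3676 lower, which turns the balance. The replicate block gave 3540 higher and 3229 lower. Deviations of same-numbered libraries correlated at 0.019, 0.02 and -0.001, so no shared deviation was seen. Such values cannot tell whether same-numbered libraries were prepared together. Of 257 named genes 231 kept direction and call throughout. The sign of 5 genes that were not called turned, and the cause was not tested. With median-ratio scaling LYN was -0.0308, CREBBP -0.0462, SDHA -0.0222 and RPLP0 -0.0187, and with quantile normalization LYN was -0.0051 and CREBBP -0.009. Over the fits that leave out 1 library, or replicate 3 of both lines (an alternative chosen after seeing the data), PAX5 ranged from -0.2149 to 0.0174, LYN from -0.0756 to 0.0554, CREBBP from -0.0905 to 0.1743, SDHA from -0.1746 to 0.1739 and RPLP0 from -0.0328 to 0.1296. Of 1404 list counts compared 1318 stayed within 1.5 times.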

Other observations

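Some named loci of the immunoglobulin regions also separated the lines. The locus that merges ELK2AP with MIR8071-2 did not, at 1661, 1798 and 2056 FPKM in SUDHL6 and at 1447, 1678 and 1409 FPKM in SUDHL4. LINC00221 appeared as a pair of loci over 1 span of chromosome 14, from 106714573 to 107095581 in hg19, where 15 of its 16 nearest RefSeq neighbours carry immunoglobulin symbols. The first was at 62.0 and 74.2 FPKM in SUDHL6 replicates 1 and 2, at 1.02 FPKM in replicate 3, and listed at 0 in SUDHL4. The second was listed at 0 in SUDHL6 and was at 138, 143 and 126 FPKM in SUDHL4. In the SUDHL6 libraries given the BCL6 inhibitor the first was at 41.7, 45.3 and 0.350 FPKM, again lowest in replicate 3.

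SUDHL6 replicate 3 differed from the other 2 libraries of its line at the genes named here, which were singled out after their values were seen. It was the highest SUDHL6 library for IRF4 (3.98, 4.80 and 19.6 FPKM), BATF (12.5, 11.7 and 63.2 FPKM), S100A10 (18.6, 15.9 and 85.5 FPKM) and LMO2 (18.3, 22.8 and 55.4 FPKM). It was the lowest for IGJ (354, 221 and 39.6 FPKM) and for BACH2, a repressor of plasma cell differentiation (18.7, 11.8 and 1.496 FPKM). Across the tested loci, 134 lay at least 2-fold above and 181 at least 2-fold below both other SUDHL6 libraries in replicate 3, against 17 to 54 above and 12 to 35 below in each of the other 5 libraries. This pattern was not tested.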
